A study of Mus musculus with 8 samples.

Results

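The genes described here are 10 genes of the circadian clock and its direct outputs: Arntl, Npas2, Nr1d1, Nr1d2, Dbp, Tef, Per1, Per2, Per3 and Bhlhe41. They were taken by Ensembl identifier from the 52636 genes of each table. They had been picked with their values in these libraries in view, so their levels and ratios are given as a description, without a test. Articular cartilage of knee joints was sequenced from male C57BL/6 mice, wild type (WT) or lacking the collagen receptor OSCAR (Oscar-/-), labelled 10 weeks old. The joints had undergone sham surgery or destabilization of the medial meniscus (DMM), an operation that loosens the meniscus and leads to osteoarthritis, and were collected 2 or 4 weeks later. Each of the 8 combinations of genotype, surgery and week was 1 library of 10 pooled cartilages, so no condition had a replicate. The time of day at which joints were collected is not given in the sources used here, and with 1 library per condition it cannot be told apart from genotype, surgery or week.

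The clock of mammalian cells is a loop of transcription that takes about a day. ARNTL (BMAL1) pairs with CLOCK or NPAS2 and drives genes that carry an E-box, among them the Per and Cry repressors, Nr1d1, Nr1d2, Dbp and Tef. PER and CRY proteins then shut ARNTL down, and the REV-ERB proteins encoded by Nr1d1 and Nr1d2 shut off Arntl and Npas2 through a site named the RRE. Arntl and Npas2 messages therefore peak in most tissues when those of Nr1d1 and Dbp are low, and cartilage of mice is known to run such a clock. A shift in clock time can move these arms of the clock in different directions, whereas a change in the amount of all clock messages would move them together. With the time of collection unknown, the direction of the arms alone cannot tell a shift from a change in amount.

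Promoters were searched for letters of motifs known from the loop, and 1 is shown for each of the 6 genes with a match. No binding was measured. RefSeq promoters on GRCm38.p6, spanning 250 bases before to 50 bases after the start, were found for 9 of the 10 genes, as 12 promoters. Both strands were searched for the E-box CACGTG, its variant CACGTT, the D-box TTATGTAA that DBP and TEF bind, the RRE TAGGTCA and the cyclic AMP element TGACGTCA. The E-box and the cyclic AMP element read the same on both strands, and none of the matches in these genes overlapped another. Capitals mark the match in each sequence, written 5′ to 3′ on the strand of the gene.
Arntl, chr7:113207261-113207560, plus strand, RRE: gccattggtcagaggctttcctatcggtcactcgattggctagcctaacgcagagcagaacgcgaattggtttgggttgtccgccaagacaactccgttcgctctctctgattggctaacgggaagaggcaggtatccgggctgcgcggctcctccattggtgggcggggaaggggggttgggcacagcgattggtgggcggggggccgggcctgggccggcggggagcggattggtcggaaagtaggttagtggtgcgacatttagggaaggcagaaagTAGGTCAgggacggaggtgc
Nr1d1, chr11:98775328-98775627, minus strand, E-box variant on the opposite strand: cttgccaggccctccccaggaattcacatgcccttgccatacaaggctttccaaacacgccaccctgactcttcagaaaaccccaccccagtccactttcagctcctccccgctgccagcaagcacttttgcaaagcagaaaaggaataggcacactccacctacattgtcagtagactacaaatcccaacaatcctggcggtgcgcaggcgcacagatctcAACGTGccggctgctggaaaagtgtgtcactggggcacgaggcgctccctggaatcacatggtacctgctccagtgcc
Per1, chr11:69098699-69098998, plus strand, E-box: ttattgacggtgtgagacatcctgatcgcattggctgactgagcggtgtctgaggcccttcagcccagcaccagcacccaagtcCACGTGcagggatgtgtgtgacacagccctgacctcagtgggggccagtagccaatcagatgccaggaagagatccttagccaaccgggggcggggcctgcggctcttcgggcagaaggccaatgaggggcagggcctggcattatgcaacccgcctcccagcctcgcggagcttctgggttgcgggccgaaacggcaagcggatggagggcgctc
Tef, chr15:81811164-81811463, plus strand, E-box: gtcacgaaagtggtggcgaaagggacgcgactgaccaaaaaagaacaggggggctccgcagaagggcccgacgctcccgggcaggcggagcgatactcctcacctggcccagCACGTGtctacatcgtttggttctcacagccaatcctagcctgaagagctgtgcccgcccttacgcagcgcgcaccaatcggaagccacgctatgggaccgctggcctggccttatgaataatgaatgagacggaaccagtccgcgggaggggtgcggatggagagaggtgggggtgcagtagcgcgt
Bhlhe41, chr6:145865371-145865670, minus strand, E-box: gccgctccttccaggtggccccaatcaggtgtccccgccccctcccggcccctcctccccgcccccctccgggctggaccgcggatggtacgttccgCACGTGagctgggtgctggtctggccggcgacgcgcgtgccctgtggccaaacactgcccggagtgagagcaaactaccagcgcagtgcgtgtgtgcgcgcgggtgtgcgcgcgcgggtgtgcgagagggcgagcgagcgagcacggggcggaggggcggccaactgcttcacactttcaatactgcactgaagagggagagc
Per3, chr4:151044616-151044915, minus strand, D-boxes: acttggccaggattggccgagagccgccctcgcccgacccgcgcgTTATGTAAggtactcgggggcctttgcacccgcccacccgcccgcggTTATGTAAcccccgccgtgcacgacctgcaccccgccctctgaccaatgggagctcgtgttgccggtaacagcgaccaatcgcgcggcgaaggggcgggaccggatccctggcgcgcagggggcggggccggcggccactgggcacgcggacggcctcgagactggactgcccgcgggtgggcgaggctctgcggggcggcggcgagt

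The E-box stood in promoters of 3 of the 9 genes, Tef, Per1 and Bhlhe41, and in 7.15% of all 32851 promoters. The RRE was found in Arntl, in the later of its overlapping promoters, and in 2.61% of all promoters. Per3 carried 2 D-boxes, a motif present in 0.938% of promoters. Nr1d1 carried the E-box variant, which 4.68% of promoters held. The cyclic AMP element stood in no promoter of these genes and in 1.79% of all. In Npas2, Nr1d2 and Dbp none of these letters was found in this window.

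The libraries held 13189181 to 18533609 expected counts. Oscar itself had 42 to 118 expected counts in the 4 WT libraries and 0 in the 4 Oscar-/- libraries. The cell makeup matters for what a level means. Hemoglobin genes took 26.5% to 37.7% of all TPM (a transcript's share of all transcripts, corrected for length and scaled to the same total in each library), and 16 chondrocyte markers summed to only 0.105% to 0.295%. In such a mixture, fewer cells of a type and less RNA per cell cannot be told apart.

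All 10 genes were detected in all 8 libraries, and 9 passed the filter of a TPM over 1 in at least 1 library, which Npas2 missed. By median TPM over the 8 libraries the order was Dbp 24.4, Tef 12.2, Nr1d1 10.25, Nr1d2 8.71, Per1 8.69, Arntl 4.73, Per3 3.58, Per2 2.97, Bhlhe41 2.15 and Npas2 0.135. Among neighbors in this order, the ranges over libraries were separate only between Dbp and Tef and between Bhlhe41 and Npas2. The levels moved little, since the highest library exceeded the lowest by 1.58-fold for Arntl to 2.54-fold for Bhlhe41 among the 9 genes.

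**Figure D1:**
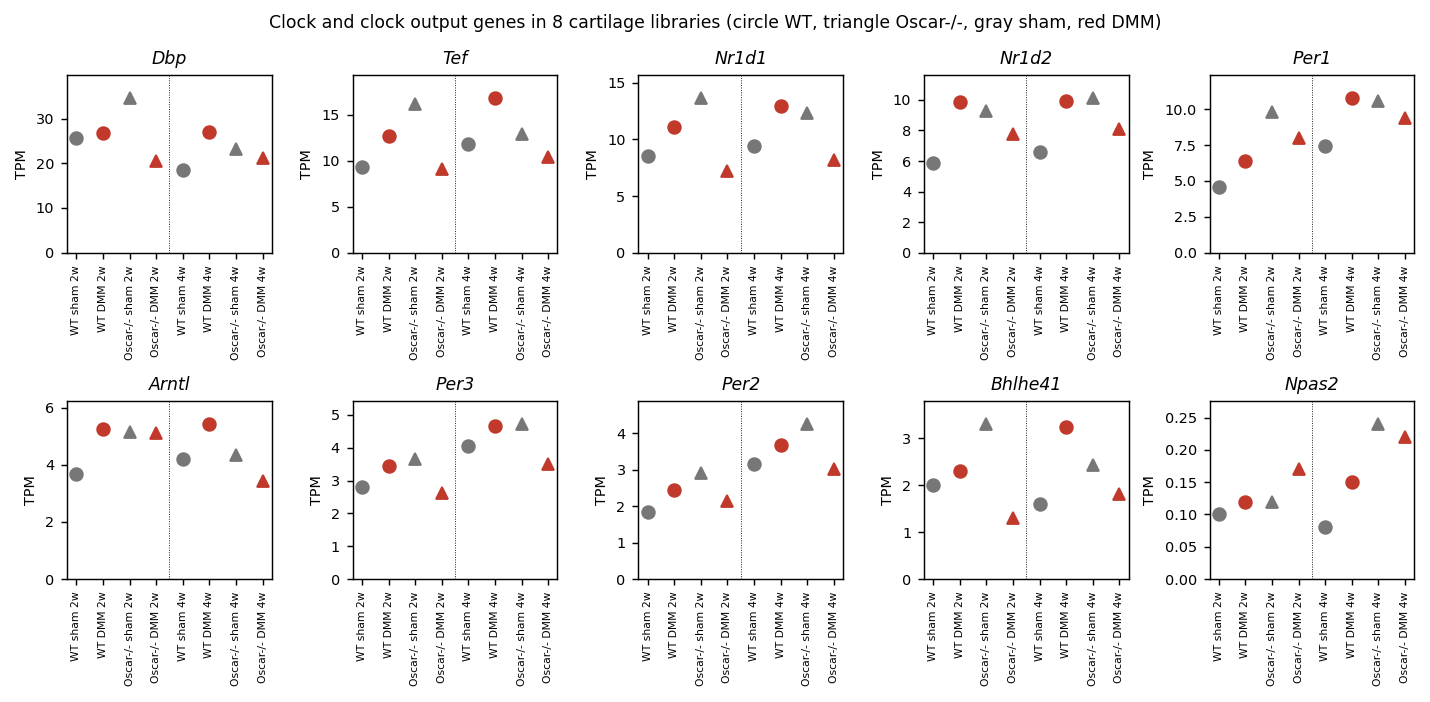
TPM of each of the 10 genes (vertical axis, from 0) in the 8 libraries (horizontal axis), with circles for WT, triangles for Oscar-/-, gray for sham and red for DMM, and 1 point per library. In WT the DMM library stands above its sham library for every gene at both weeks, and in Oscar-/- the DMM library stands below sham for all except Npas2 at 2 weeks.

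Arntl, on chromosome 7 (113207465 to 113314126), encodes the activator without which the clock stops. Its TPM at 2 weeks was 3.68 (sham) and 5.26 (DMM) in WT and 5.14 (sham) and 5.10 (DMM) in Oscar-/-. At 4 weeks the same libraries gave 4.19, 5.43, 4.35 and 3.43. On TPM, Arntl was thus lowest after DMM in Oscar-/- at 4 weeks and highest after DMM in WT at 4 weeks, while on TMM-scaled counts (counts scaled so that the bulk of genes is equal between libraries) Oscar-/- DMM at 2 weeks was highest. Npas2, on chromosome 1 (39193731 to 39363236), encodes the partner that can stand in for CLOCK. It rested on 5 to 18 expected counts per library, with TPM between 0.08 and 0.24. Counting error for Npas2 was therefore as large as most of its differences.

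The REV-ERB genes repress Arntl. Nr1d1, on chromosome 11 (98767932 to 98775333), had a TPM at 2 weeks of 8.57 (sham) and 11.09 (DMM) in WT and 13.66 (sham) and 7.19 (DMM) in Oscar-/-. At 4 weeks its TPM was 9.41, 12.97, 12.29 and 8.19 in the same order. The Oscar-/- sham and WT DMM libraries were high, and the WT sham and Oscar-/- DMM libraries low, without overlap on TPM but with overlap on TMM-scaled counts. This grouping was made with the values in view. Of all tested genes, 27.4% had higher TPM after DMM in WT and lower TPM in Oscar-/- at both weeks. Nr1d2, on chromosome 14 (18204054 to 18239127), had 5.85, 9.85, 9.30 and 7.76 TPM at 2 weeks and 6.58, 9.94, 10.14 and 8.12 TPM at 4 weeks. WT sham was the lowest library for Nr1d2 at each week. Nr1d1 shares 1075 bases at its end with Thra, the thyroid hormone receptor gene on the other strand, which had 12.48 to 19.57 TPM. The strand setting of the counting is not given in the sources used here, so reads of the shared stretch are uncertain.

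Dbp and Tef encode related bZIP factors that carry the rhythm on to metabolic genes. Dbp, on chromosome 7 (45705088 to 45710203), was the most abundant of the 10 genes. At 2 weeks its TPM was 25.68 (sham) and 26.73 (DMM) in WT and 34.64 (sham) and 20.42 (DMM) in Oscar-/-, and at 4 weeks it was 18.60, 27.00, 23.09 and 21.20. Tef, on chromosome 15 (81802421 to 81826863), had 9.36, 12.66, 16.20 and 9.05 TPM at 2 weeks and 11.81, 16.83, 12.93 and 10.39 TPM at 4 weeks. Tef was high in WT DMM and Oscar-/- sham within each week, as Nr1d1 was. Dbp shares 737 bases with Sphk2 on the opposite strand, so the same limit on strand holds.

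The Per genes encode the repressors that close the loop. Per1, on chromosome 11 (69095217 to 69109960), had 4.57 TPM (sham) and 6.37 (DMM) in WT and 9.79 (sham) and 8.00 (DMM) in Oscar-/- at 2 weeks, then 7.41, 10.80, 10.57 and 9.38 at 4 weeks. Per2, on chromosome 1 (91415982 to 91459324), had 1.83, 2.44, 2.91 and 2.15 TPM at 2 weeks and 3.16, 3.67, 4.25 and 3.03 TPM at 4 weeks. All 4 values of Per2 at 4 weeks lay above all 4 at 2 weeks on the TPM scale. On that scale the median gene also rose by 0.11 to 0.54 in log2 between the weeks, and TMM-scaled counts of Per2 overlapped. Per3, on chromosome 4 (151003652 to 151044665), had 2.79, 3.44, 3.66 and 2.62 TPM at 2 weeks and 4.05, 4.65, 4.72 and 3.49 TPM at 4 weeks. Within each week Oscar-/- sham was the highest library for Per2 and Per3. Per3 lies on the strand of Camta1 and shares 41014 bases of its span with it.

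Bhlhe41 (DEC2), on chromosome 6 (145858243 to 145865558), encodes a repressor that competes for E-boxes. At 2 weeks its TPM was 2.01 (sham) and 2.29 (DMM) in WT and 3.30 (sham) and 1.30 (DMM) in Oscar-/-, and at 4 weeks it was 1.59, 3.23, 2.42 and 1.82. On TPM it had the widest spread of the 9 genes that passed the filter, while on TMM-scaled CPM Dbp ran from 25.5 to 55.9 and Bhlhe41 from 8.60 to 17.2. The library with 1.30 TPM held 135 expected counts, against 208 in its sham partner.

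The arms were first compared inside each library, where scaling drops out. The arm difference was the mean log2 TPM of Arntl and Npas2 minus that of Nr1d1, Dbp, Per1, Per2 and Per3. At 2 weeks it was -3.19 (sham) and -3.12 (DMM) in WT and -3.47 (sham) and -2.64 (DMM) in Oscar-/-. At 4 weeks it was -3.59, -3.34, -3.14 and -3.02 in the same order. The whole spread over the libraries was 0.95 on the log2 scale, or 1.93-fold, beside counting standard errors of 0.18 to 0.33 that came mostly from Npas2. Oscar-/- DMM at 2 weeks stood highest, and its 95% counting interval, -3.07 to -2.22, overlapped that of every other library.

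With Arntl alone in place of its pair, counting errors fell to 0.096 to 0.123 and the libraries spread over 0.87 on the log2 scale. Arntl minus the other arm was -0.59 (sham) and -0.40 (DMM) in WT and -0.76 (sham) and -0.19 (DMM) in Oscar-/- at 2 weeks. At 4 weeks it was -0.74, -0.75, -1.05 and -1.04. The 2 Oscar-/- libraries of 4 weeks had the least Arntl relative to the other arm, and Oscar-/- DMM at 2 weeks had the most. The interval of that library, -0.40 to 0.020, was separate from those of all 4 libraries of 4 weeks, whose upper bounds were -0.82 in Oscar-/- sham, -0.81 in Oscar-/- DMM, -0.50 in WT sham and -0.53 in WT DMM. It was also separate from that of its own sham partner, -0.98 to -0.54, and overlapped those of the WT libraries at 2 weeks.

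**Figure D2:**
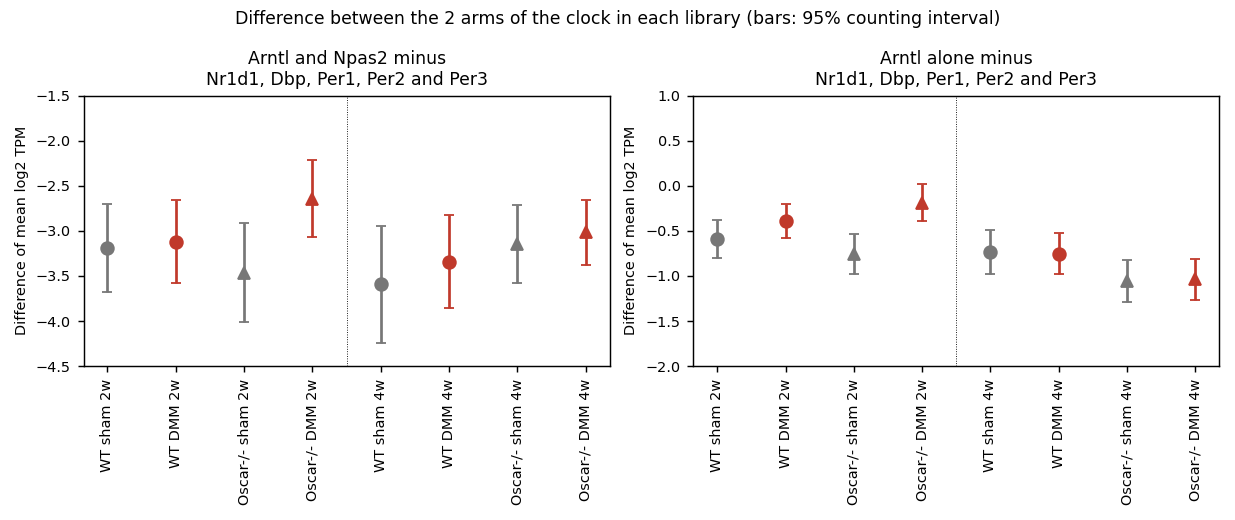
Difference of mean log2 TPM between the arms of the clock (vertical axis) in each library (horizontal axis), with Npas2 (left) and with Arntl alone (right); bars are 95% counting intervals and cover counting error only. On the left the intervals of all libraries overlap that of Oscar-/- DMM at 2 weeks, and on the right its interval, around -0.19, stands apart from those of all 4 libraries of 4 weeks and of Oscar-/- sham at 2 weeks, around -0.76.

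DMM minus sham, the arm difference changed by 0.064 (counting SE 0.34) in WT at 2 weeks and by 0.25 (SE 0.42) in WT at 4 weeks. In Oscar-/- it changed by 0.83 (SE 0.35) at 2 weeks and 0.13 (SE 0.28) at 4 weeks. Oscar-/- at 2 weeks had the highest of these values. With the sham library of the other week in place of its own, the values were 0.47 in WT at 2 weeks, -0.16 in WT at 4 weeks, 0.50 in Oscar-/- at 2 weeks and 0.45 in Oscar-/- at 4 weeks. On these values Oscar-/- at 2 weeks did not stand alone. Such pairs differ in week as well as surgery, so the swap does not isolate surgery. In Oscar-/- at 2 weeks, with its own sham, the 5 genes of the Nr1d1 arm stood at a mean of -0.55 (SE 0.05) relative to the median gene on the log2 scale while Arntl stood at 0.02 (SE 0.15). These standard errors hold counting error only, and no replicate shows how far 2 pools of the same condition would differ.

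To see whether the arms moved in opposite directions, each of the 12 pairs of libraries that differ in 1 factor was taken, and the log2 ratio of each gene was set against the median of all tested genes in that pair. Arntl and the mean of the Nr1d1 arm lay on the same side of the median gene in 7 pairs and on opposite sides in 5. Both stood beyond 2 counting standard errors on opposite sides in 1 pair, 4 against 2 weeks in Oscar-/- DMM, with Arntl at -0.68 (SE 0.15) and the arm at 0.17 (SE 0.05). In WT DMM against sham at 4 weeks Arntl stood at 0.32 (SE 0.16) and the arm at 0.34 (SE 0.05), so both were higher. Arntl and the arm stood beyond 2 counting standard errors on the same side in Oscar-/- against WT DMM at 4 weeks (Arntl -0.39, arm -0.11). They did so too at 4 against 2 weeks in WT sham (-0.35 and -0.20) and Oscar-/- sham (-0.45 and -0.15). In all other pairs Arntl lay within 2 counting standard errors of the median gene. The pairs also share libraries, so the count of sides does not decide how the arms moved.

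Few differences were large. Of the 120 values of 10 genes in 12 pairs, 3 reached 2-fold relative to the median gene. Bhlhe41 reached it in Oscar-/- DMM against sham at 2 weeks, at -1.31 (SE 0.16) on the log2 scale. Dbp reached it barely in WT sham at 4 against 2 weeks, with a fold of 0.499. Npas2 reached it in Oscar-/- against WT sham at 4 weeks, at 1.64, on 12 and 5 expected counts. Among all tested genes the share past 2-fold in the 3 pairs named was 3.21%, 4.22% and 2.2%. In DMM against sham it was 3.72% and 3.05% in WT at 2 and 4 weeks and 1.72% in Oscar-/- at 4 weeks, where 0 of the 10 genes reached it. In the other pairs, with 0 of the 10 genes, it was 2.85% (sham, 2 weeks), 1.39% (DMM, 2 weeks) and 1.89% (DMM, 4 weeks) between genotypes and 2.61% (WT DMM), 3.5% (Oscar-/- sham) and 3.2% (Oscar-/- DMM) between weeks. With counts scaled by TMM, 1 value remained past 2-fold, that of Npas2, and Bhlhe41 stood at -0.78. The effective length that RSEM assigned to Bhlhe41 ranged from 4217 to 5957 bases over the libraries, which enters TPM and not the counts.

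After DMM most of these genes stood above the median gene in WT at 4 weeks and below it in Oscar-/- at both weeks. In WT at 4 weeks all 10 stood above the median gene, with a median log2 ratio of 0.47 and a range from 0.15 for Per3 to 0.97 for Bhlhe41. In WT at 2 weeks 6 stood above and 4 below, with a median of 0.047. In Oscar-/- 8 of 10 stood below the median gene at 2 weeks (median -0.43) and 8 of 10 at 4 weeks (median -0.18). Dbp after DMM in Oscar-/- stood at -0.73 (SE 0.09) at 2 weeks and at 0.03 (SE 0.09) at 4 weeks. On TPM without centering, all 10 were higher after DMM in WT at both weeks, where the median gene itself stood at 0.35 and 0.05, and 9 and 10 were lower in Oscar-/-, where it stood at -0.03 and -0.15. Higher TPM after DMM in WT with lower TPM in Oscar-/- was found in 9 of the 9 filtered genes at each week and at both, and in 48.8%, 46.2% and 27.4% of all tested genes.

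**Figure D3:**
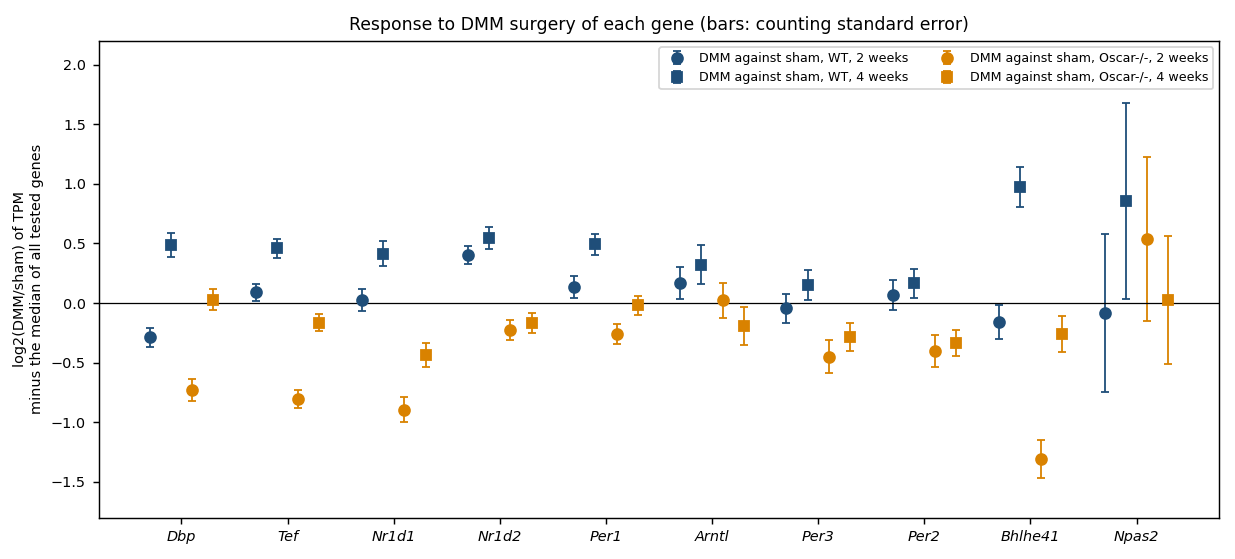
log2 ratio of TPM, DMM over sham, minus the median of all tested genes (vertical axis) for each gene (horizontal axis), WT in blue and Oscar-/- in orange, circles for 2 and squares for 4 weeks; bars are counting standard errors. At 4 weeks every WT value lies above 0, and in Oscar-/- at 2 weeks all genes except Arntl and Npas2 lie below it, down to -1.31 for Bhlhe41.

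The difference of these ratios, Oscar-/- minus WT (DIF, the measure of the study), was lower than that of the median gene for 9 of the 10 genes at 2 weeks and for all 10 at 4 weeks. Their median was -0.43 at 2 weeks and -0.55 at 4 weeks relative to the median gene, whose own DIF was -0.41 and -0.22. Before centering, and with 2 weeks first, DIF came to -1.30 (counting SE 0.14) and -1.05 (0.15) for Nr1d1. For Tef it came to -1.28 (0.10) and -0.83 (0.11), and for Bhlhe41 to -1.53 (0.21) and -1.43 (0.22). The weakest member at 2 weeks other than Npas2 was Arntl, at -0.53 (SE 0.20), close to the median gene. For Bhlhe41 at 2 weeks the centered DIF was -1.12 on TPM and -0.65 on TMM-scaled counts.

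Standing above the median gene after DMM in WT and below it in Oscar-/- was found in 5 of 9 genes at 2 weeks, against 28.4% of all tested genes, and in 8 of 9 at 4 weeks, against 27.7%. Nr1d1, Nr1d2, Tef, Per1 and Per2 did so at both weeks, which is 5 of 9 beside 12.9% of all genes. TMM-scaled counts gave 5, 8 and 5 of 9, beside 26.1%, 28.8% and 12.9%. Since the genes had been picked with such values known, nothing is read from these shares about the genes as a set. Each ratio rests on 2 pools that were in the same sequencing lane by the lane token in the table names.

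Between the genotypes the genes differed after sham surgery as well, in comparisons that use the same libraries as those above. In Oscar-/- against WT after sham surgery 9 of 10 genes stood above the median gene at 2 weeks (median 0.39) and 10 of 10 at 4 weeks (median 0.46). At 4 weeks the genotypes also have different lane tokens, so genotype and lane cannot be told apart there. Per1 stood highest at 2 weeks, at 0.82, and Arntl lowest at 4 weeks, at 0.11. After DMM 7 of 10 stood below the median gene at 2 weeks (median -0.24) and 8 of 10 at 4 weeks (median -0.11). Per1 was above it after DMM at 2 weeks, at 0.46, while Bhlhe41 was below at -0.69.

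Between the weeks, Arntl was the 1 gene of 9 whose libraries did not overlap on TMM-scaled counts. It had 12.8 to 15.8 CPM (counts scaled by library size) at 2 weeks and 9.98 to 12.2 at 4 weeks. All 4 libraries of 4 weeks lay below all 4 of 2 weeks for 8.09% of tested genes and above them for 10.6%, so that 1 of 9 lower and 0 of 9 higher are near the background. Ratios of 2 genes inside a library need no scaling. The TPM ratio of Per2 to Dbp was 0.0713 to 0.105 at 2 weeks and 0.136 to 0.184 at 4 weeks, and that of Per2 to Arntl was 0.422 to 0.566 and 0.676 to 0.977. Per3 to Dbp was 0.106 to 0.129 at 2 weeks and 0.165 to 0.218 at 4 weeks.

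At 4 weeks there was thus more Per2 and Per3 message for each Dbp message in every library. Such separation by week was found for 7 of the 36 pairs formed from the 9 genes on TPM, against 16.5% of all pairs of tested genes, and for 9 of 36 on CPM, against 18%, shares near the background. By surgery no ratio of 36 separated, against 2.81% of all pairs on TPM and 2.71% on CPM. By genotype 1 of 36 did, Per2 to Per3 on TPM and Tef to Nr1d1 on CPM, against 1.32% and 1.26%. The table names carry 3 lane tokens, 1 for all libraries of 2 weeks and 1 for each genotype at 4 weeks, so week and lane cannot be told apart.

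Over the 8 libraries the genes were alike to different degrees in TMM-scaled log2 CPM. Nr1d1, Tef, Bhlhe41 and Dbp moved together, with r = 0.94 for Nr1d1 and Tef, 0.95 for Tef and Bhlhe41, and 0.80 for Dbp and Bhlhe41. Per2 and Per3 formed another close pair (r = 0.85), and Per2 showed little likeness to Dbp (r = -0.09). Arntl was most like Nr1d2 (r = 0.69), the repressor that acts on it, and least like Per2 (r = -0.49) and Per3 (r = -0.41). A value of r of at least 0.8 was found for 8 of 36 pairs of the 9 genes and for 3.04% of all pairs of tested genes. The 8 points share libraries, depth and composition, and the genes were picked on them, so these values describe the libraries.

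**Figure D4:**
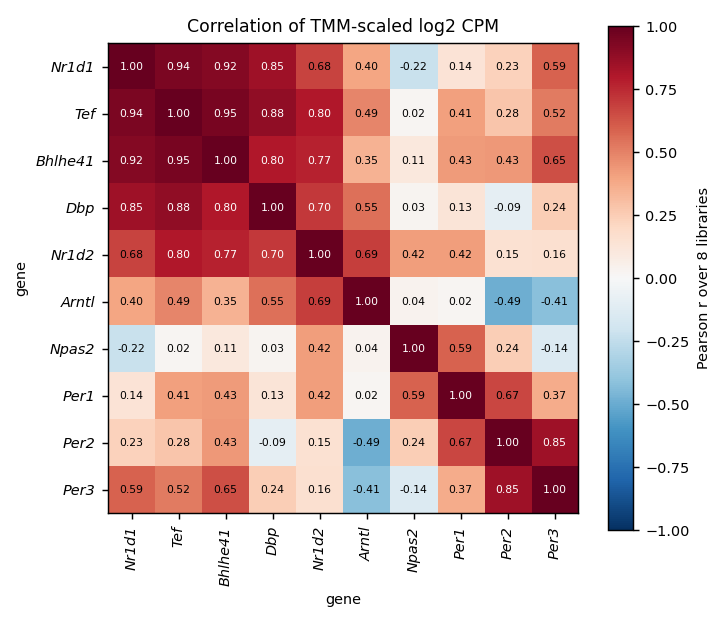
Pearson r between the genes (both axes) over the 8 libraries, on TMM-scaled log2 CPM, from -1 (blue) to 1 (red). Nr1d1, Tef, Bhlhe41 and Dbp form a block of 0.80 to 0.95, and Arntl is at -0.49 with Per2 and -0.41 with Per3.

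Other genes of the clock were tested with edgeR's quasi-likelihood test over all 12538 tested genes, from a list of 24 of which 22 were tested. The additive model took surgery, genotype and week, and a further model added the genotype by surgery interaction. No condition had a replicate, so p-values rest on the spread left after these terms. That spread holds how far the responses to surgery and genotype differed between weeks. In the additive model it also holds the genotype by surgery interaction. In the interaction 2 of 22 were lower and 0 higher, against 3.83% lower and 1.41% higher of all genes (5.24% in all). The interaction is the log2 response to DMM in Oscar-/- minus that in WT. Bhlhe40 (DEC1), the close relative of Bhlhe41, had an interaction of -0.71 (SE 0.14, edgeR adjusted p = 0.0249). Rora, the activator that shares the RRE with the REV-ERB proteins, had -1.01 (SE 0.24, edgeR adjusted p = 0.0406). Their edgeR calls were lost when Oscar-/- sham at 2 weeks was left out, with adjusted p = 0.132 and 0.194. Neither was called without WT DMM at 2 weeks, WT DMM at 4 weeks or Oscar-/- sham at 4 weeks either.

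Bhlhe40 had 8.05 TPM (sham) and 13.54 (DMM) in WT and 14.55 (sham) and 9.33 (DMM) in Oscar-/- at 2 weeks, then 16.58, 18.41, 17.76 and 12.51 TPM at 4 weeks. Rora had 0.39, 0.89, 1.08 and 0.57 TPM at 2 weeks and 0.68, 1.08, 0.80 and 0.73 TPM at 4 weeks. Both were higher after DMM in WT and lower after DMM in Oscar-/- on this scale. The additive model averages surgery over the genotypes and genotype over the surgeries, so such opposite responses can cancel in it. Its surgery term was -0.091 for Bhlhe40 and 0.18 for Rora. Clock, the partner of ARNTL, had an interaction of -0.55 (SE 0.18, edgeR adjusted p = 0.0957), and Cry1, a repressor that acts with PER, had -0.19 (SE 0.17, edgeR adjusted p = 0.525), neither past the threshold. None of the 22 passed with edgeR for surgery, genotype or week, where 2, 0 and 4 had an unadjusted p under 0.05 and all genes were called at 0%, 0.0479% and 7.94% (2.35% lower and 5.58% higher at 4 weeks). DESeq2 called 1 for surgery and none for genotype or week, and limma on log2(TPM + 1) called 7 for week and none for the others. The share of all genes that limma called for week is not given here, so the 7 have no background beside them.

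By role, 2 of the 11 tested partner and repressor genes were lower in the interaction, Bhlhe40 and Rora, with a list median of -0.25 beside -0.008 over all genes. Of the 11 tested kinases and ubiquitin ligases that set the life of PER and CRY proteins, 0 passed the interaction with edgeR, with 0 at an unadjusted p under 0.05, 0 with DESeq2 and a median of 0.046. For week 0 of the 11 passed with edgeR, and 2 were higher at an unadjusted p under 0.05, beside 27.2% of all genes in either direction. Limma on log2(TPM + 1) called 6 of the 11 for week. Its share of all genes is not given here, and TPM of the median gene rose by 0.11 to 0.54 in log2 between weeks. Nothing is read from this count about these genes. The kinase gene Csnk1e, 10.15 to 26.12 TPM, was among the 11. Of 11 outputs that are rhythmic in many tissues, Klf9, a glucocorticoid and clock target, was lower in the interaction at -0.85 (SE 0.18, edgeR adjusted p = 0.026), and Por, the electron donor of cytochromes P450, was higher at 4 weeks by 0.26 (edgeR adjusted p = 0.0425).

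Messages that respond to handling, stress hormones or temperature could also move with clock genes, and 3 lists of them were measured. Of 11 tested immediate-early genes, Egr1 had an interaction of -0.97 (SE 0.23, edgeR adjusted p = 0.0366). Fos had an interaction of -0.71 (SE 0.17, edgeR adjusted p = 0.0379), and Zfp36 rose by 0.45 at 4 weeks (edgeR adjusted p = 0.0141). Of 10 glucocorticoid-induced genes, Cdkn1a had an interaction of -0.62 (SE 0.15, edgeR adjusted p = 0.0406). Angptl4 fell by 0.48 at 4 weeks (edgeR adjusted p = 0.0459), while Fkbp5 ran from 12.85 to 24.15 TPM. Of 10 temperature-responsive genes 0 passed the interaction with edgeR and DESeq2 called 1. Before adjustment, 8 immediate-early and 5 glucocorticoid-induced genes were lower at p under 0.05, and of the temperature-responsive genes 2 were lower and 4 higher, beside 24.2% of all tested genes in either direction. Left-out libraries raised the edgeR adjusted p to 0.132 for Klf9, 0.198 for Egr1 and 0.17 for Cdkn1a, each without Oscar-/- sham at 2 weeks, and to 0.149 for Fos without WT DMM at 4 weeks. DESeq2 did not call Klf9 (adjusted p = 0.0652) or Cdkn1a (0.119). Over all alternatives the adjusted p reached 0.143 for Por, 0.805 for Angptl4 and 0.0633 for Zfp36. The part of these responses in the values of the clock genes was not tested.

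Cell markers also differed between these libraries, some with the clock genes and some not. All 11 osteoblast and osteocyte markers stood above the median gene after DMM in WT at 4 weeks, and 6 of 11 did so at 2 weeks. In Oscar-/- 0 of 11 of these markers did so at either week. Their summed share of TPM was 0.286% to 0.524% over all libraries, from 0.345% to 0.504% in WT and 0.519% to 0.393% in Oscar-/- between sham and DMM at 2 weeks, and from 0.286% to 0.524% and 0.417% to 0.359% at 4 weeks. Of 12 fibroblast markers 10 stood above the median gene after DMM in WT at each week, and 7 and 4 did in Oscar-/-, with sums of 0.0828% to 0.211%. Of 15 tested chondrocyte markers 4 and 11 did in WT and 2 and 0 in Oscar-/-, with a median of -0.75 in WT at 2 weeks. Of 11 endothelial markers 10 stood above the median gene in WT at each week, and 9 and 10 did in Oscar-/-. Of 10 tested erythroid markers 1 and 2 stood above it in WT and 10 and 10 in Oscar-/-, the other way from the clock genes, and the 11 tested muscle markers had a median of -2.63 in WT at 2 weeks. In the interaction 4 of 11 osteoblast, 7 of 12 fibroblast, 3 of 15 chondrocyte and 5 of 11 endothelial markers were lower with edgeR, beside 3.83% of all genes, and 2 of 10 erythroid markers were higher, beside 1.41%. No marker on these lists was at 0 in every library, and their part in the clock gene values was not tested.

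The genes whose TMM-scaled log2 CPM was most like the arm difference over the 8 libraries, of 10827 with at least 50 counts in every library, were Cd40 (r = 0.96), Pparg (0.93), Kpna3 (0.93), Wrnip1 (0.92), Aaed1 (0.91) and Mndal (0.91). The most opposed were Vps37c (-0.92), Slc38a7 (-0.92), Ist1 (-0.91), Pramef8 (-0.90), Bcl6 (-0.89) and Palb2 (-0.88). None of these 12 remained among the 6 highest or lowest when the genes and the arm difference were both put on log2(TPM + 1). The arm difference also holds Npas2, with 5 to 18 counts. With Arntl alone in place of its pair, the most alike was Ide (r = 0.98) and the most opposed Cdc42ep3 (-0.96), neither among these 12. Against the mean of the Nr1d1 arm, a measure added after seeing the data, the most alike were Ust (0.96), Hlf (0.96), Cadm1 (0.95), App (0.94), Ptprz1 (0.93) and Gprasp1 (0.93). Hlf encodes the bZIP factor closest to DBP and TEF and was not among the 10 genes. It had 0.97 TPM (sham) and 1.28 (DMM) in WT and 1.80 (sham) and 1.10 (DMM) in Oscar-/- at 2 weeks, then 2.10, 1.76, 1.95 and 1.21 at 4 weeks, and its interaction of -0.55 (SE 0.22, edgeR adjusted p = 0.159) missed the threshold. The effective length of Hlf ran from 3330 to 5470 bases, which enters TPM and not the counts. In WT sham its TPM rose from 2 to 4 weeks, while its TMM-scaled counts gave a log2 ratio of -0.18.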

How the data were processed

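RNA of 8 pooled cartilage samples was sequenced as paired ends from stranded mRNA libraries. By the study's methods, reads were trimmed, then placed on GRCm38 by STAR and assigned to genes by RSEM. Versions in the submitters' processing notes are 0.11.8 for FastQC, 2.6.0a for STAR and 1.2.17 for RSEM. These notes give a human build, but the identifiers are murine. The authors deposited expected counts, which RSEM estimates and which were rounded here, with TPM and FPKM; the deposited FPKM were not used.

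Of 52636 identifiers, 52403 matched GENCODE M21. Protein-coding genes with a TPM over 1 in at least 1 library (12538) were tested with edgeR 4.0.16 (TMM, quasi-likelihood, Benjamini-Hochberg adjustment, threshold 0.05), with 4 residual degrees of freedom in the additive and 3 in the interaction model. DESeq2 1.42.0 and limma 3.58.1 on log2(TPM + 1), other filters and scalings and leaving out each library were alternatives. The scripts were tested on simulated data. Ratios of TPM were centered on the median of tested genes. Standard errors of ratios were computed from expected counts and hold counting error alone. Members and lists were chosen with earlier results of these data known. Named were all 10 genes, every listed gene called and up to 4 others per list with the widest TPM range, and the 6 genes most and least like the arm difference; some of these are not reported here.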

Additional observations from a re-analysis of the deposited data

Results flagged for a closer look

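Nr1d1, Nr1d2, Tef, Per1 and Per2 stood above the median gene after DMM in both WT pairs and below it in both Oscar-/- pairs, which drew them out. This difference between the genotypes was not tested, and 12.9% of all tested genes did the same. Nr1d1 had log2 ratios of 0.026 and 0.41 in WT at 2 and 4 weeks and -0.89 and -0.43 in Oscar-/-. Nr1d2 had 0.41 and 0.54 in WT and -0.23 and -0.17 in Oscar-/-. Tef had 0.089 and 0.46 in WT and -0.81 and -0.16 in Oscar-/-. Per1 had 0.13 and 0.49 in WT and -0.26 and -0.020 in Oscar-/-. Per2 had 0.069 and 0.17 in WT and -0.40 and -0.34 in Oscar-/-. The WT values at 2 weeks of Nr1d1 (counting SE 0.09) and Per2 (SE 0.13) and the Oscar-/- value at 4 weeks of Per1 (SE 0.076) lie within 1 counting error of 0.

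Outside the 10 genes, the response to DMM differed between genotypes by edgeR's interaction term for Rora (-1.01), Bhlhe40 (-0.71), Klf9 (-0.85), Cdkn1a (-0.62), Fos (-0.71) and Egr1 (-0.97), all lower in Oscar-/-. Each call was lost without Oscar-/- sham at 2 weeks, and DESeq2 did not call Rora (adjusted p = 0.139), Klf9 (0.0652) or Cdkn1a (0.119).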

How the results depend on the processing

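The count of other clock genes lower in the interaction was 2 in edgeR and became 1 with DESeq2, 0 with limma on log2(TPM + 1) and 1 when a TPM over 1 was required in every library. Leaving out 1 library gave 0 to 2, with 0 without WT DMM at 2 weeks, Oscar-/- sham at 2 weeks, WT DMM at 4 weeks or Oscar-/- sham at 4 weeks. The interaction fit of all 8 libraries had 3 residual degrees of freedom, and each refit without 1 library had fewer. The part of this in the lost calls was not tested. For surgery the count of 0 became 1 with DESeq2 and 1 without a filter, and for week 0 became 7 with limma, where TPM keeps the shift of the median gene of 0.11 to 0.54 between weeks. Values past 2-fold fell from 3 to 1 with TMM-scaled CPM and, without Npas2, from 2 to 0. None of the 6 most alike and 6 least alike genes were kept on log2(TPM + 1) (0 and 0). The cause was not tested. The 9 called genes of the lists lost their call in 60 refits, with 14 refits for each gene and 13 for Rora. The losses ran from 1 of 14 for Zfp36 to 10 of 14 for Por. None of these 9 changed direction. The arm difference after DMM changed sign, within its counting error, in WT at 2 weeks (-0.039 on log2(TPM + 1)), in WT at 4 weeks (-0.018 with Arntl alone, -0.085 with summed TPM, -0.15 on log2(TPM + 1), -0.16 with the other week's sham) and in Oscar-/- at 4 weeks (-0.052 with summed TPM). No paired analysis was possible because the replicate numbers of the samples name single libraries and pair none; week was a term of each model. Npas2, with 5 to 18 counts, and the single library per condition limit the arm difference.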
